A study of Homo sapiens with 4 samples.

Results

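The lysosome genes described here comprised every gene of the deposited table whose symbol began with ATP6V0 or ATP6V1, which names the subunits of the vacuolar proton pump, and 29 listed genes for lysosomal hydrolases, luminal cofactors, membrane proteins and their transcription factors. The rule found 51 of the 16834 genes in the table, 22 by symbol and all 29 of those listed. It used gene names alone and no measured value, but the members were chosen with earlier results of these data known. RNA was sequenced from MIA PaCa-2 cells, a human pancreatic ductal adenocarcinoma line with the wild-type genotype label in all samples, after 12 h in 4 conditions. These were a control, 1 µM NBT (neobractatin, a natural compound from Garcinia bracteata), 5 µM trametinib (which blocks the kinase MEK) and the combination of NBT and trametinib at these doses. Each condition was 1 library from 1 culture of 1 cell line, so no value had a replicate, no difference could be tested against the spread between cultures, and intervals below cover counting error only. The study asked how the 2 drugs act together on these cells, and the comparisons below were each drug and the combination with the control, and the combination with each single drug.

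The lysosome is the acidic compartment in which cells digest material taken up by endocytosis or delivered by autophagy. Its acidity is set by the V-ATPase, a rotary pump with a cytosolic V1 sector that hydrolyses ATP and a membrane V0 sector that carries protons into the lumen, where proteases, glycosidases and lipid hydrolases work. The transcription factors TFEB and TFE3 enter the nucleus when nutrient signalling at the lysosome is low and bind the CLEAR element, an E-box with the core CACGTG in the promoters of many lysosome genes. Pancreatic cancer cells are known to depend on lysosomes and autophagy for nutrients, and ERK signalling downstream of MEK is known to restrain both.

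The 4 libraries held sums of 18776212 estimated counts in the control, 19437747 after NBT, 18949915 after trametinib and 19614763 after both drugs. A count of 3 therefore stood for 0.153 to 0.160 CPM (counts scaled to the library sum). Transcripts of the MEK pathway followed the trametinib labels, since DUSP6, a phosphatase induced by ERK, had 329 counts in the control, 521 after NBT, 14 after trametinib and 9 after both drugs. The epithelial keratin KRT8 was abundant in every library but lower with each treatment. It had 3799.23 TPM in the control, then 3151.39, 2216.2 and 1492.67 in the NBT, trametinib and combination libraries. The other epithelial genes did not all share this pattern. In the same order, KRT18 had 3141.54, 2693.81, 1047.93 and 995.27 TPM, and KRT7 had 5.74, 4.88, 2.78 and 2.25. EPCAM changed less, with 242.36, 209.12, 209.75 and 218.24 TPM. The E-cadherin gene CDH1 had 85.43, 51.21, 86.91 and 57.01 TPM, lower in the 2 libraries with NBT. The part of these genes in the results below was not tested. Other markers also moved with trametinib. The fibroblast gene COL1A1 had 45, 27, 98 and 53 counts in the control, NBT, trametinib and combination libraries, the T cell gene CD3E had 0, 0, 55 and 29, and the mesenchymal gene VIM had 202, 249, 425 and 500, and their part in the results was not tested. The remaining leukocyte, endothelial and acinar genes (PTPRC, CD14, PECAM1, CDH5 and CPA1) had 0 to 26 counts in a library. MIA PaCa-2 is usually described as low in E-cadherin and rich in vimentin, and these libraries went against that, with 51.21 to 86.91 TPM of CDH1 (E-cadherin) and 11.48 to 26.39 TPM of VIM (vimentin). The titles named the same line for all 4 samples while the cell line entries carried a different number for each, and the identity of the cells was not tested.

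Fewer cells of a kind and less RNA per cell cannot be told apart in such bulk libraries. The log2 ratios below compare estimated counts after scaling to the library sum, with 0.5 reads added. They were read for the 42 genes of the set that had at least 50 estimated counts in at least 1 library, among 11367 such genes in the table. The remaining 9 had fewer than 50 counts in every library. ATP6V1B1, the kidney form of the B subunit, had 0, 0, 0 and 1 counts in the control, NBT, trametinib and combination libraries, in which order all values in this paragraph are given. ATP6V0A4, the kidney form of the a subunit, had 5, 7, 5 and 5 counts. ATP6V0D2, the d subunit known from osteoclasts and kidney, had 8, 24, 11 and 24 counts. The brain form ATP6V1G2 had 4, 4, 9 and 5 counts, so these tissue-specific paralogs were low in all conditions, with ATP6V0D2 the most counted of them. ATP6V0E2 had 0, 0, 6 and 11 counts. ATP6V1FNB, a gene named after its neighbour ATP6V1F and no pump subunit, had 12, 22, 49 and 46 counts, higher in both libraries with trametinib. Among the cathepsins, CTSF had 0, 0, 0 and 3 counts, CTSL had 0, 0, 4 and 0, and CTSZ had 4, 2, 2 and 3. The listed cathepsins that reached the minimum were therefore CTSA, CTSB, CTSC, CTSD and CTSH, and CTSV, which was not listed, had 866, 657, 1154 and 638 counts.

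To place the E-box on the genes, the core CACGTG, which reads the same on both strands, was searched in RefSeq promoter windows of 300 bases (250 before to 50 after the annotated start, GRCh38.p14). Of the 51 genes, 37 matched a window. The core was in 12 of these 37 windows (32.4%), against 7.43% of all 27305 promoter windows and 10.4% of the 9379 windows of genes with at least 50 counts. The longer palindrome TCACGTGA, which contains the core, was in 16.2% of the set's windows and in 1.04% of all windows. The full CLEAR form, with GT directly before the core and AC directly after it, was in 8.11% of the set's windows and in 0.381% of all. The windows of the set were also richer in G and C, with a median of 67.7% against 58.3% for all windows and 65.3% for the genes with at least 50 counts, and the part of base composition in the shares was not tested. A match is a description of the letters and not a site shown to be bound. One stretch of 30 bases is printed for each of the 10 genes that held the core and had at least 50 counts, because these are the genes set apart by the E-box further below. Each reads 5′ to 3′ on the strand of its gene, with the core in capitals, in GRCh38 coordinates.
ATP6V1G1, V1 subunit G (chr9:114587699-114587728, plus strand): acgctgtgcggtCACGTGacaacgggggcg
ATP6V0B, V0 subunit c″ (chr1:43974891-43974920, plus strand): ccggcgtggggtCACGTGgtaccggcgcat
ATP6V0D1, V0 subunit d (chr16:67481199-67481228, minus strand): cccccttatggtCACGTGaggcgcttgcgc
CTSA, protective protein cathepsin A (chr20:45891298-45891327, plus strand): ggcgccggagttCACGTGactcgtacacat
CTSD, cathepsin D (chr11:1763957-1763986, minus strand): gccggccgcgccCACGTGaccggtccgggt
GAA, acid alpha-glucosidase (chr17:80101493-80101522, plus strand): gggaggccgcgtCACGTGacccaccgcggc
NEU1, sialidase (chr6:31862930-31862959, minus strand): atgctgcgtgatCACGTGggaggagatgag
LAMP1, membrane glycoprotein (chr13:113297199-113297228, plus strand): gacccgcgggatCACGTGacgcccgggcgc
CLCN7, chloride-proton exchanger (chr16:1475058-1475087, minus strand): gccgtcgctcatCACGTGgccccgtcgcgc
MCOLN1, calcium channel (chr19:7522598-7522627, plus strand): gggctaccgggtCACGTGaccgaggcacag
The 10 genes held 20 copies of the core, and LAMP1 alone held 6. The first base of each copy lay between 1 and 192 bases before the annotated start. The nearest copy, in LAMP1, ran across that start. In the GENCODE v29 annotation the stretches of ATP6V1G1, GAA, NEU1 and LAMP1 printed above lay in no exon. Those of ATP6V0B, ATP6V0D1, CTSD and CLCN7 lay within an annotated untranslated exon of the same gene, and that of CTSA lay within an exon that was also annotated as coding in some transcripts. That of MCOLN1 overlapped an exon by 2 bases. The windows of TFE3, TFEB, NPC1, ATP6V0A2 and ATP6V1C2 held no core. Only 1 window per gene was searched, so any other start of these genes was not covered.

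With NBT the pump genes of the set were mostly higher and its hydrolase genes mostly lower than in the control. With trametinib both groups were mostly higher. Over all 42 genes with at least 50 counts, the median log2 ratio to the control was 0.02 after NBT, 0.16 after trametinib and 0.06 after both drugs, beside 0.00, 0.06 and 0.02 over all 11367 genes. With NBT, 15 of the 42 were higher and 15 lower beyond counting error (the 95% counting interval left out 0), where 26.2% of all genes were higher and 29.1% lower. With trametinib, 28 were higher and 6 lower (all genes 37.1% and 26.4%). With the combination, 20 were higher and 11 lower (all genes 36.7% and 34.4%). Of the 16 pump genes measured, 10 were higher and 4 lower than the control beyond counting error with NBT. With trametinib 11 were higher and 2 lower, where other library scalings gave 8 or 9 higher and 2 lower. In the combination library 10 were higher and 2 lower. ATP6V1C2 was among the 10 higher with NBT and the 10 higher with the combination. It reached the minimum of 50 counts only in the libraries with NBT, so its direction in these counts followed from the minimum. The pump gene TCIRG1 was not among the 16, since its symbol lies outside the rule, and its log2 ratios were -0.42, 0.36 and -0.56. Of the 15 hydrolases, 1 was higher and 9 were lower with NBT. At these depths a change of a few percent in an abundant gene passes the counting interval, so these counts are of direction and not of size.

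Large changes were few. Past 2-fold of the control there was 1 gene of the 42 after NBT (ATP6V1C2; 2.60% of all genes either way), 0 after trametinib (5.67%) and 1 after both drugs (ATP6V1C2; 8.79%). ATP6V1C2 reached the minimum of 50 counts only in the 2 libraries with NBT, where it was high, so its place in these counts followed from the minimum. Every other gene of the 42 had at least 50 counts in each library, and none of them was past 2-fold of the control. Past 1.5-fold there were 4 after NBT, all higher and comprising ATP6V1C2, NPC1, ATP6V0A2 and TFE3 (9.37% of all genes either way and 5.08% higher), 3 after trametinib, all higher and comprising TFEB, ATP6V1E1 and SCARB2 (15.0% and 9.18%), and 10 after both drugs, 9 higher and 1 lower (24.0%, made up of 13.0% higher and 11.0% lower). In the combination, the higher 9 were ATP6V1C2, ATP6V1E1, ATP6V1G1, ATP6V0A2, CTSD, PSAP, CLCN7, NPC1 and TFE3, and the lower gene was CTSC. Comparing the combination with trametinib alone, 5 were past 2-fold (6.70%), of which ATP6V1C2, NPC1, TFE3 and ATP6V0A2 were higher (2.85% of all genes) and TFEB was lower (3.85%). Comparing the combination with NBT alone, 0 were past 2-fold (4.12%) and PSAP was the 1 gene past 1.5-fold, and higher (11.6% either way and 6.30% higher).

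**Figure D1:**
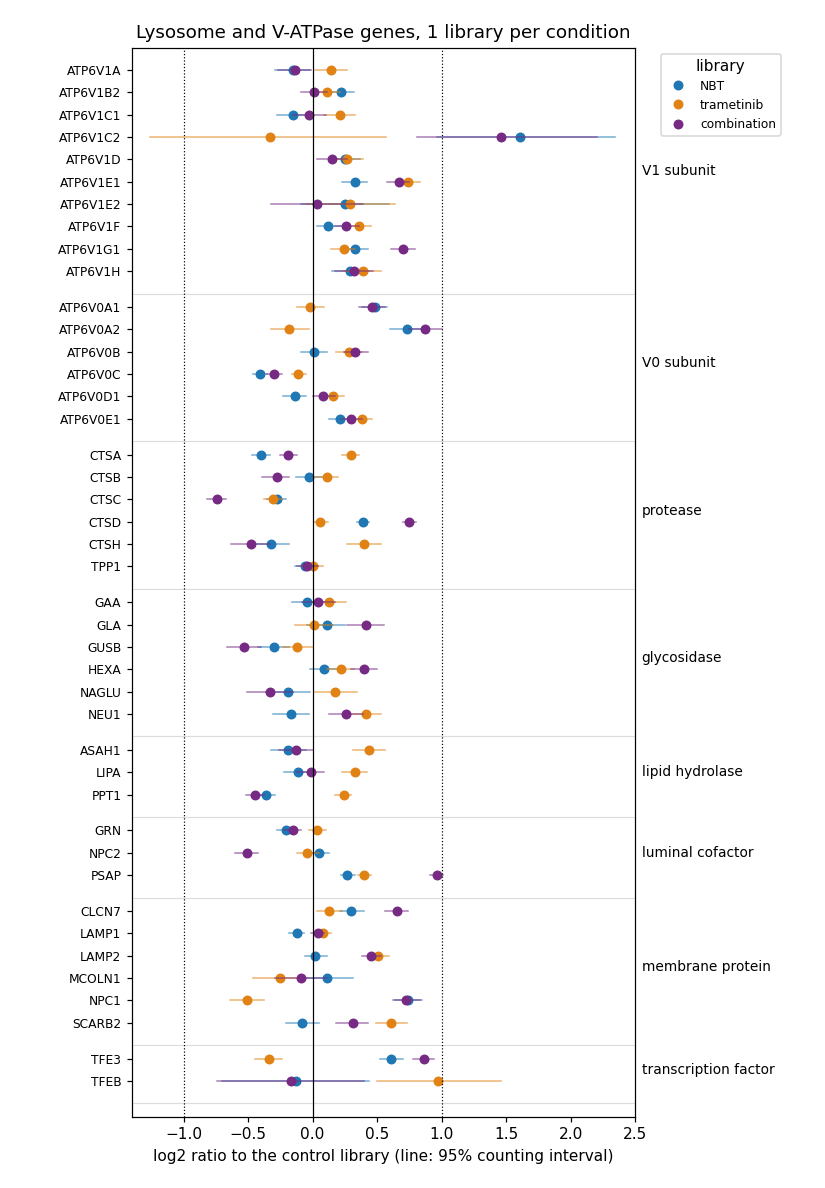
Each row is 1 of the 42 genes with at least 50 estimated counts, grouped by role, and the points give the log2 ratio of the NBT, trametinib or combination library to the control library with 95% counting intervals. NBT and combination points lie to the right of the trametinib points for ATP6V1C2, ATP6V0A1, ATP6V0A2, NPC1 and TFE3, and to the left for CTSA, CTSH, PPT1 and ASAH1.

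The V1 sector, the ATP-hydrolysing head and stalk of the pump, was higher in all 3 treated libraries for most of its subunits. Of the 10 V1 genes measured, 7 were higher and 2 lower beyond counting error after NBT (median log2 ratio 0.25). After trametinib 8 were higher and 0 lower (0.25), and after both drugs 6 and 1 (0.21). Of all genes, 26.2% were higher and 29.1% lower after NBT. The shares were 37.1% and 26.4% after trametinib, and 36.7% and 34.4% after both drugs. With trametinib the counting intervals began at 0.02 for ATP6V1A and 0.00 for ATP6V1B2. Other library scalings (TMM and DESeq2) each moved the median trametinib ratio of all genes by -0.07, so the 8 depends on the scaling. The V1 counts were not redone under those scalings. The deposited TPM of the 12 V1 genes, a level per transcript length, summed to 739.76 in the control, 819.26 after NBT, 951.96 after trametinib and 939.52 after both drugs. The sum was 1.29 times the control with trametinib and 1.27 times with the combination. The gain was largest for ATP6V1E1, a peripheral stalk subunit, with 140.08, 167.66, 230.2 and 216.56 TPM in the same order. Next came ATP6V1F, a rotor shaft subunit, in the trametinib library (278.18, 288.79, 350.56 and 325.89 TPM) and ATP6V1G1 in the combination (113.74, 136.91, 131.87 and 179.68 TPM).

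ATP6V1E1 had 1735 estimated counts in the control, 2251 after NBT, 2928 after trametinib and 2877 after both drugs. The log2 ratio to the control was 0.33 after NBT (95% counting interval 0.23 to 0.42), 0.74 after trametinib (0.66 to 0.83) and 0.67 after both drugs (0.58 to 0.75), so both libraries after trametinib stood above the NBT library. ATP6V1G1, the partner of E in the stalk, behaved otherwise. It had 1661, 2167, 1978 and 2815 counts, and its log2 ratio was 0.33 after NBT, 0.24 after trametinib and 0.70 (0.61 to 0.79) after both drugs, which was the highest library by a clear margin. The catalytic subunit ATP6V1A had 1000, 930, 1114 and 947 counts, with log2 ratios of -0.15, 0.14 and -0.14 that were small in every library. Its partner in the ATP-binding ring, ATP6V1B2, had 1483, 1791, 1610 and 1559 counts and ratios of 0.22, 0.11 and 0.01. The catalytic ring thus moved little, and its A and B subunits stood on opposite sides of the control with NBT. ATP6V1D, another rotor subunit, had log2 ratios of 0.25, 0.27 and 0.15, and ATP6V1H, which regulates the coupling of V1 to V0, had 0.29, 0.39 and 0.32. The testis-enriched ATP6V1E2 had 130 to 161 counts, and its 3 intervals all included 0.

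The C subunit, which clamps V1 to V0 and is encoded by ATP6V1C1 or by its tissue-restricted paralog ATP6V1C2, changed its make-up with NBT. ATP6V1C2 had 25 counts in the control, 80 after NBT, 20 after trametinib and 73 after both drugs. Both libraries with NBT stood well above both without it. The log2 ratio to the control was 1.61 (95% counting interval 0.96 to 2.34) after NBT and 1.46 (0.81 to 2.2) after both drugs, or 3.05-fold and 2.76-fold higher, and -0.33 (-1.26 to 0.57) after trametinib. The combination was 3.46-fold above trametinib alone. ATP6V1C1 had 1022, 954, 1194 and 1049 counts, close to level. ATP6V1C2 supplied 4.34% of the C subunit TPM in the control, 13.2% after NBT, 2.97% after trametinib and 11.2% after both drugs. It stayed the minor form in all libraries, and its counts were among the lowest of the 42 genes.

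In the V0 sector, the genes of the membrane ring were lower or level with NBT while ATP6V0A1 and ATP6V0A2, which encode forms of the a subunit, were higher. ATP6V0C encodes the proton-carrying c ring and was the most abundant pump gene, with 558.8 TPM in the control, 403.31 after NBT, 508.92 after trametinib and 442.3 after both drugs. Its log2 ratio to the control was -0.41 (-0.46 to -0.35) after NBT, -0.11 (-0.16 to -0.05) after trametinib and -0.30 (-0.35 to -0.24) after both drugs, so every treated library was below the control. The other ring gene, ATP6V0B, had log2 ratios of 0.01, 0.28 and 0.33. ATP6V0D1, which couples the ring to the V1 shaft, had ratios of -0.14, 0.16 and 0.08, and ATP6V0E1 had 0.21, 0.38 and 0.30. Because the c ring gene dominated the sum, the 9 V0 genes together had 1088.25, 951.48, 1129.31 and 1077.22 TPM, below the control with NBT, while the V1 sum was above it.

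The a subunit holds the half-channels for protons and directs the pump to its membrane. ATP6V0A2, the form known from the Golgi and endosomes, had 811 counts in the control, 1389 after NBT, 724 after trametinib and 1552 after both drugs. It was 1.65-fold higher after NBT (log2 0.73, 95% counting interval 0.60 to 0.85) and 1.83-fold higher after both drugs (0.87, 0.75 to 1.00), and it was slightly lower after trametinib (-0.18, -0.32 to -0.03). ATP6V0A1, the widespread form, had 1388, 2002, 1386 and 1998 counts. The pairs of libraries with and without NBT were almost the same in count, and the log2 ratio was 0.48 (0.38 to 0.58) after NBT, -0.02 (-0.12 to 0.09) after trametinib and 0.46 (0.36 to 0.56) after both drugs. TCIRG1, which encodes the a3 form of lysosomes and osteoclasts and is not named by the ATP6V rule, went the other way with 1158, 894, 1503 and 818 counts. Its log2 ratio was -0.42 (-0.55 to -0.30) after NBT, 0.36 (0.25 to 0.47) after trametinib and -0.56 (-0.70 to -0.43) after both drugs. As a share of the a subunit TPM, TCIRG1 was 45% in the control, 29.3% after NBT, 52.7% after trametinib and 26.1% after both drugs. ATP6V0A2 was 19.3%, 28.7%, 14.9% and 32.3%, and ATP6V0A1 was 35.5%, 41.8%, 32.2% and 41.5%. The summed level changed less, from 102.66 TPM in the control to 110.37 after trametinib, 116.23 after NBT and 117.95 after both drugs.

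**Figure D2:**
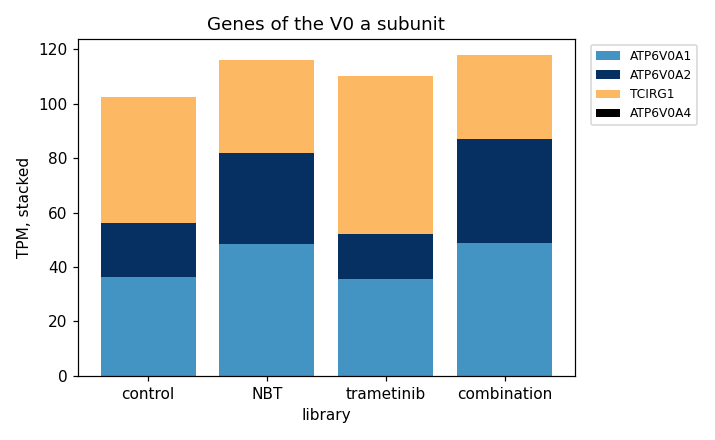
Stacked bars give the deposited TPM of the genes for the V0 a subunit in the control, NBT, trametinib and combination libraries. TCIRG1 is at 46.23 TPM in the control, 34.04 and 30.73 in the libraries with NBT and 58.2 with trametinib, while ATP6V0A2 is highest in the libraries with NBT and ATP6V0A4 is too low to see.

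Hydrolases were lower with NBT and slightly higher with trametinib. Of the 15 measured, 1 was higher and 9 were lower beyond counting error with NBT (median log2 ratio -0.17). With trametinib 11 were higher and 1 lower (0.17), a count that came to 7 higher and 2 lower under other library scalings. With the combination 4 were higher and 7 lower (-0.13). Set directly against trametinib alone, the combination had 3 higher and 10 lower (-0.39), where 31.1% of all genes were higher and 36.6% lower. Against NBT alone it had 5 higher and 4 lower (0.06), where the shares of all genes were 31.3% and 26.3%. The TPM of the 18 hydrolase genes summed to 1339.29, 1201.59, 1428.79 and 1305.92, or 0.897, 1.07 and 0.975 times the control. The comparisons with the control share that library, so a chance deviation in the control would move them all together.

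Among the proteases, the aspartic protease cathepsin D stood apart. CTSD had 5001 counts in the control, 6792 after NBT, 5273 after trametinib and 8794 after both drugs. Its log2 ratio to the control was 0.39 (0.34 to 0.44) after NBT, 0.06 (0.01 to 0.12) after trametinib and 0.75 (0.70 to 0.80) after both drugs, of which the trametinib value changed sign with the library scaling. It was thus 1.68-fold higher in the combination and the only protease above the control there beyond counting error. CTSC, which activates granule serine proteases, was the reverse. It had 3587, 3057, 2916 and 2238 counts, with log2 ratios of -0.28 (-0.35 to -0.21), -0.31 (-0.38 to -0.24) and -0.74 (-0.82 to -0.67), so it was lower with each drug and lowest with the combination. The exopeptidase CTSH had 833, 689, 1110 and 625 counts, highest with trametinib and lowest with the combination. Its log2 ratios to the control were -0.32 (-0.47 to -0.18), 0.40 (0.27 to 0.53) and -0.48 (-0.63 to -0.33), and the combination was 0.88 below trametinib alone on the log2 scale. CTSA, which protects NEU1 and the beta-galactosidase in a complex, had 3725, 2919, 4617 and 3420 counts and ratios of -0.40, 0.30 and -0.19. CTSB had ratios of -0.03, 0.11 and -0.28. The tripeptidyl peptidase TPP1 was the steadiest gene of the group, with 2489, 2470, 2506 and 2536 counts.

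The 3 lipid hydrolases shared a pattern, with trametinib above the control and NBT below it. PPT1, which removes palmitate from proteins, had 3730 counts in the control, 3013 after NBT, 4433 after trametinib and 2856 after both drugs. Its log2 ratio was -0.36 (-0.43 to -0.29) after NBT, 0.24 (0.17 to 0.30) after trametinib and -0.45 (-0.52 to -0.38) after both drugs. The acid ceramidase ASAH1 had 939, 853, 1282 and 896 counts, and the acid lipase LIPA had 1484, 1421, 1877 and 1536. For all 3 the combination lay near the NBT library and not near the trametinib library. Their TPM summed to 267.44, 210.87, 316.93 and 209.93, which was 0.788 times the control after NBT, 1.19 times after trametinib and 0.785 times after both drugs.

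The glycosidases did not share 1 pattern. NEU1, the sialidase, had 876, 806, 1172 and 1096 counts, higher in both libraries with trametinib (log2 ratio 0.41 alone and 0.26 in the combination). The beta-glucuronidase GUSB had 1214, 1019, 1131 and 878 counts and was lowest in the combination (-0.53, -0.66 to -0.40). NAGLU, which degrades heparan sulfate, had 579, 526, 659 and 481 counts and ratios of -0.19, 0.17 and -0.33. The combination was the highest library for 2 of the 6. They were the alpha-galactosidase GLA, with 729, 813, 739 and 1012 counts, and the hexosaminidase subunit HEXA, with 1391, 1530, 1630 and 1913. GAA, which degrades glycogen, had 975, 985, 1078 and 1050 counts.

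The 3 luminal cofactors did not move together. PSAP encodes the precursor of the saposins, which present lipids to the hydrolases, and it had 5054 counts in the control, 6317 after NBT, 6739 after trametinib and 10251 after both drugs. Its log2 ratio was 0.27 (0.22 to 0.33), 0.40 (0.35 to 0.45) and 0.96 (0.91 to 1.01), so the combination was 1.94-fold above the control, 1.61-fold above NBT and 1.47-fold above trametinib. NPC2, the soluble cholesterol carrier, had 2316, 2486, 2280 and 1696 counts. The combination was its only low library, with a log2 ratio of -0.51 (-0.60 to -0.42) beside 0.05 with NBT and -0.04 with trametinib. The progranulin gene GRN had 3838, 3435, 3964 and 3601 counts, with ratios of -0.21, 0.03 and -0.15.

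**Figure D3:**
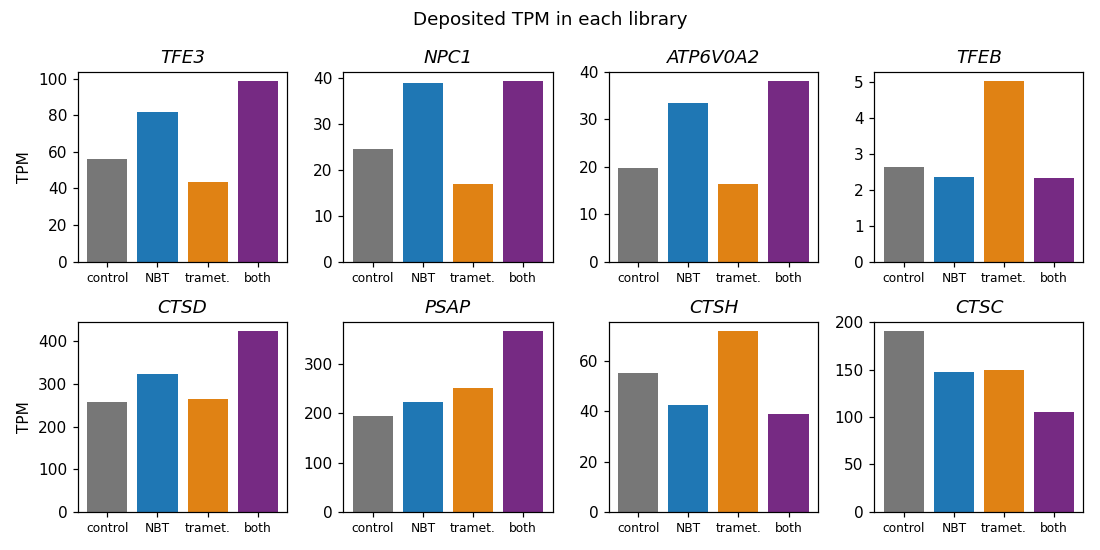
Bars give the deposited TPM in the control, NBT, trametinib and combination libraries for 8 genes, each on its own axis from 0. TFE3, NPC1 and ATP6V0A2 are high in both libraries with NBT, TFEB and CTSH are high with trametinib alone, CTSD and PSAP are highest in the combination, and CTSC is lowest there.

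Membrane proteins differed by gene more than by group. NPC1, the membrane transporter that takes cholesterol from NPC2 out of the lysosome, had 1123 counts in the control, 1947 after NBT, 796 after trametinib and 1937 after both drugs. The 2 libraries with NBT were almost equal and both lay above the 2 without. Its log2 ratio was 0.74 (0.64 to 0.85) after NBT, -0.51 (-0.64 to -0.38) after trametinib and 0.72 (0.62 to 0.83) after both drugs, and the combination was 2.35-fold above trametinib alone. NPC1 and NPC2, which act in the same step, therefore stood on opposite sides of the control in the combination. CLCN7, the chloride-proton exchanger of the lysosomal membrane, had 1507, 1926, 1663 and 2469 counts and a log2 ratio of 0.65 (0.56 to 0.74) in the combination, against 0.30 with NBT and 0.13 with trametinib. SCARB2, the receptor that carries glucocerebrosidase to lysosomes, had 955, 937, 1467 and 1234 counts. It was 1.52-fold higher with trametinib (log2 0.61, 0.49 to 0.73), level with NBT (-0.08) and 0.31 above the control in the combination on the log2 scale. MCOLN1, the calcium channel of the lysosome, had 416, 465, 353 and 409 counts, with log2 ratios of 0.11 (-0.08 to 0.31), -0.25 (-0.46 to -0.04) and -0.09 (-0.29 to 0.11).

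The 2 main membrane glycoproteins differed. LAMP1 had 5571, 5304, 5959 and 5980 counts, within a log2 range of -0.12 to 0.08 of the control. LAMP2 had 2167, 2280, 3110 and 3103 counts, and its log2 ratio was 0.02 (-0.06 to 0.11) after NBT, 0.51 (0.43 to 0.59) after trametinib and 0.45 (0.38 to 0.53) after both drugs. LAMP2 was thus higher in both libraries with trametinib. The transcripts of LAMP2 differ in their last exon, and the LAMP2A form is the receptor of chaperone-mediated autophagy. LAMP2A was estimated at 25.9% of the LAMP2 counts in the control (95% exact binomial interval 24.1 to 27.8), 25.8% after NBT (24.0 to 27.6), 26.2% after trametinib (24.6 to 27.8) and 22% after both drugs (20.6 to 23.5). The share was lowest in the combination, and the intervals take the split of reads between transcripts as known.

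The transcription factors TFE3 and TFEB stood on opposite sides of the control with trametinib, and with NBT only TFE3 differed from it beyond counting error. TFE3 had 1741 counts in the control, 2751 after NBT, 1384 after trametinib and 3301 after both drugs. It was 1.53-fold higher after NBT (log2 0.61, 0.52 to 0.70), lower after trametinib (-0.34, -0.45 to -0.24) and 1.81-fold higher after both drugs (0.86, 0.78 to 0.94). The combination was 2.30-fold above trametinib alone. TFEB was far less abundant and had 56, 53, 111 and 52 counts. Only the trametinib library stood apart, with a log2 ratio to the control of 0.97 (0.50 to 1.46). With NBT the log2 ratio was -0.13 (-0.70 to 0.44) and with the combination -0.17 (-0.74 to 0.40), intervals too wide to show a smaller change. The 2 proteins are regulated mainly by their entry into the nucleus, which RNA counts do not measure.

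Since NBT was given with and without trametinib, its ratio could be formed in 2 pairs of libraries that share no library, NBT over control and combination over trametinib. The sign was the same in both pairs for 33 of the 42 genes (78.6%, all genes 75.6%), with a Pearson correlation across genes of 0.87 (all genes 0.68) and a Spearman correlation of 0.80 (all genes 0.70). For trametinib, over the pairs trametinib to control and combination to NBT, the sign was the same for 30 of the 42 (71.4%, all genes 71.6%), with correlations of 0.37 and 0.38 (all genes 0.67 and 0.62). Genes within a library are not independent replicates, and a few genes with large ratios weigh on these coefficients. The 4 genes with the highest ratio in both NBT pairs were ATP6V1C2, NPC1, TFE3 and ATP6V0A2. ATP6V1C2, with the largest ratios (1.61 and 1.79), reached the count minimum only in the libraries with NBT. Its entry among the 42 thus depended on being high there, and its place at the top cannot show that the pairs agree. The coefficients were not recomputed without ATP6V1C2.

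**Figure D4:**
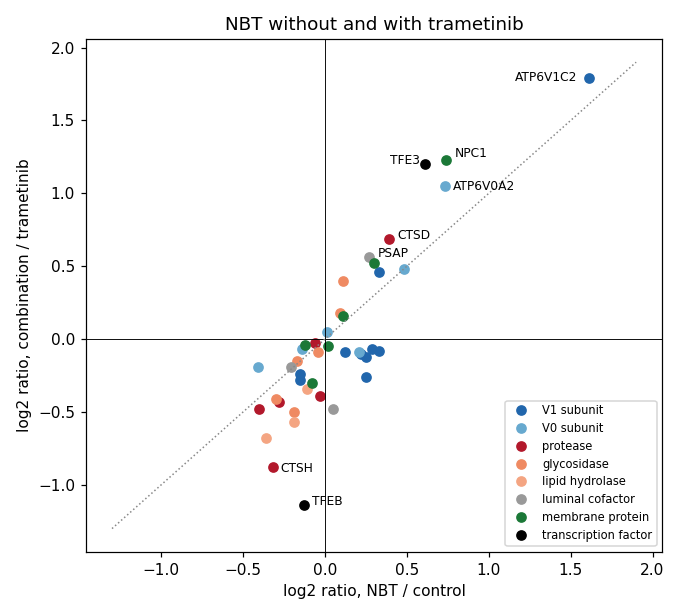
Each point is 1 of the 42 genes, with the log2 ratio of NBT to control on the horizontal axis and of the combination to trametinib on the vertical axis. Points rise together, with ATP6V1C2, NPC1, TFE3 and ATP6V0A2 at the upper right and TFEB below the rest. ATP6V1C2 reached the count minimum only in the libraries with NBT, so its entry depended on being high there.

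The combination was also set against the sum of the single-drug log2 ratios. The median difference over the 42 genes was -0.08, beside -0.03 over all genes. It was above 0 beyond counting error for 10 genes and below 0 for 17, where 19.1% and 24.0% of all genes were. TFEB was furthest below the sum (-1.01, 95% counting interval -1.73 to -0.29) and the only one of the 42 past 1 (2.33% of all genes). It no longer passed 1 under TMM or DESeq2 scaling, with TPM or with 5 reads added. TFE3 was furthest above it (0.59, 0.47 to 0.72), followed by NPC1 (0.49, 0.33 to 0.65). CTSH (-0.55) and NPC2 (-0.53) came next below. PSAP, at 0.28 (0.21 to 0.35), and CTSD, at 0.30 (0.22 to 0.37), were above the sum by a smaller amount.

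The genes with the E-box core were compared with those without it among the 30 that had a promoter window and at least 50 counts. With trametinib the 10 genes with the core had a median log2 ratio of 0.14, with 9 higher and 1 lower beyond counting error, and the 20 without it had 0.00, with 8 higher and 5 lower. The 1 lower gene was MCOLN1. Of the 9 higher, the counting intervals began at 0.01 for CTSD and GAA and at 0.03 for LAMP1 and CLCN7. TMM and DESeq2 scaling each moved the median trametinib ratio of all genes by -0.07, so the 9 depends on the library scaling. The counts by core were not redone under those scalings. Over all genes with a window and at least 50 counts, the order was the other way, with a median of 0.02 for the 971 with the core (331 higher and 318 lower) and 0.07 for the 8408 without it (3157 higher and 2136 lower). With NBT the medians of the set were -0.01 and 0.00 (all genes -0.02 and 0.00). With the combination they were 0.17 and 0.07 (all genes -0.05 and 0.04), and the ranges of the genes with and without the core overlapped in each library.

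**Figure D5:**
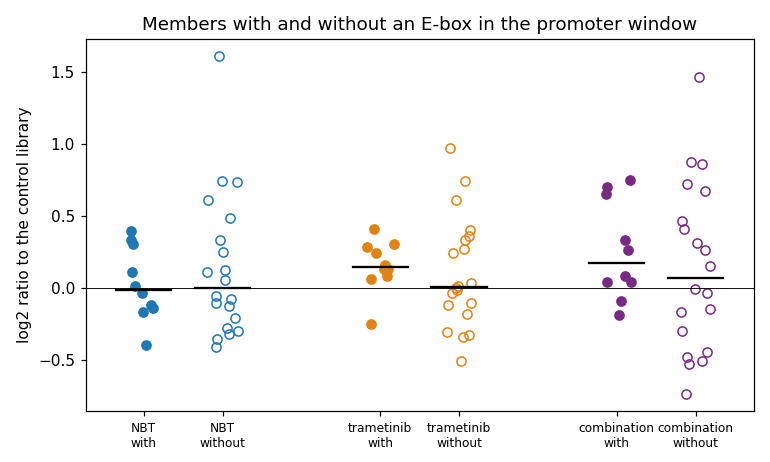
Each point is 1 gene, with its log2 ratio to the control on the vertical axis, for genes with (filled) and without (open) CACGTG in the promoter window, and black lines are medians. In the trametinib library the medians are 0.14 and 0.00, and the 2 sets overlap in every library.

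A wider list of lysosome genes that the rule did not name was read beside them. It held TCIRG1 and other pump-related genes, further hydrolases and membrane proteins, sorting factors and regulators of TFEB. Of its 82 genes with at least 50 counts, 16 were higher and 23 lower beyond counting error after NBT (median log2 ratio -0.03), where 26.2% of all genes were higher and 29.1% lower. After trametinib 58 were higher and 9 lower (0.25), beside 37.1% and 26.4% of all genes. In the order control, NBT, trametinib and combination, the 58 included AGA (31, 29, 61 and 40 counts) and CTSK (32, 26, 52 and 36). Both reached the minimum of 50 counts only in the trametinib library, so their direction there followed from the minimum. After both drugs 34 were higher and 23 lower (0.11), beside 36.7% and 34.4%. All 9 pump-related genes of this list, TCIRG1 among them, were higher beyond counting error with trametinib, with a median of 0.27. Their intervals began at 0.02 for WDR7, 0.03 for ATP6AP2 and 0.05 for DMXL2. TMM and DESeq2 scaling each moved the median trametinib ratio of all genes by -0.07. All 9 and the 58 thus depend on the library scaling, and neither was redone. With NBT 2 of these pump-related genes were higher and 3 lower (-0.03), and with the combination 4 and 1 (0.07). None of the 82 was past 2-fold with NBT (2.60% of all genes), and the genes past 2-fold with trametinib and with the combination, all named here, stood beside 5.67% and 8.79% of all genes. The gene past 2-fold above the control with trametinib was GPNMB, a glycoprotein known as a TFE3 and MITF target, with 83, 98, 295 and 211 counts. The genes past 2-fold below it were the fucosidase FUCA1 (136, 134, 27 and 35 counts), the sulfamidase SGSH (485, 682, 212 and 534) and the ion channel TMEM63A (247, 254, 18 and 39). FUCA1 and TMEM63A were low in both libraries with trametinib, whereas SGSH was low with trametinib alone. FUCA1 and TMEM63A reached the minimum of 50 counts only in the libraries without trametinib, so each could be counted here only as lower. In the combination the acid nuclease DNASE2 (817, 1669, 1577 and 2010 counts), LAMP3 (20, 18, 23 and 58) and GPNMB were past 2-fold higher, of which LAMP3 reached the minimum of 50 counts in the combination library alone and so could be counted there only as higher. HYAL2 (786, 474, 798 and 397 counts), the cation channel TPCN1 (880, 640, 517 and 454), the peptide transporter ABCB9 (266, 186, 293 and 123), FUCA1 and TMEM63A were past 2-fold lower.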

How the data were processed

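Gene and transcript tables of 4 libraries were used, 1 per condition. The authors sequenced on BGISEQ-500 and deposited RSEM estimated counts, FPKM and TPM (the submitters' notes name Bowtie2 2.2.5, RSEM 1.2.8 and hg38). The labels describe depletion of bacterial ribosomal RNA before random-primed cDNA. Estimated counts as deposited by the authors were rounded to whole numbers. At gene level 53.9% of genes had a count that was not whole in some library, so paralogs could share reads. TPM values deposited by the authors were used for levels between genes, and FPKM values deposited by the authors were not used.

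Counts were scaled to the library sum and compared as log2 ratios with 0.5 reads added, with 95% intervals from the exact binomial (Clopper-Pearson) split of each pair of counts, in Python 3.11.15 with scipy 1.17.1. PCR copies are not independent molecules, so intervals cover counting error only. A gene's ratios were read where 1 library or more had 50 counts. The script was tested on simulated data. With 1 library per condition no p-value is given. Scaling alternatives used edgeR 4.0.16 (TMM) and DESeq2 1.42.0 (size factors). Other alternatives were other count minimums, 5 added reads, TPM with a pseudocount of 0.1, transcript sums and a 1.5-fold limit.

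Genes named with values in every library were those past 1.5-fold of the control, subunits with tissue-specific paralogs, LAMP1, LAMP2, MCOLN1, TFEB and TFE3, and listed lysosome genes past 2-fold. Other members were given with values after these had been seen. The members and gene lists were chosen with earlier results of these data known. Promoter windows were those of RefSeq on GRCh38.p14, matched by gene identifier, and exons were those of GENCODE v29. Only the first window of each gene was kept, which left 27305 of 35116 windows. ATP6V1G3, KRT19, PRSS1, CELA3A, INS, GCG and DCN were not analysed here.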

Additional observations from a re-analysis of the deposited data

Results flagged for a closer look

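For 4 genes the trametinib ratio had opposite signs without NBT (trametinib to control) and with it (combination to NBT), with both counting intervals leaving out 0 under each of 3 library scalings. The difference was not tested, since each condition was 1 library. The rule was applied to the 42 genes of the set only, so no share of all genes stands beside the 4. Without regard to the intervals, the sign was the same in both pairs for 71.4% of the 42 and 71.6% of all genes. TFE3 went from -0.34 to 0.25 on the log2 scale, a difference of 0.59. ATP6V0A2 went from -0.18 to 0.15, a difference of 0.32, and ATP6V0C from -0.11 to 0.11, a difference of 0.22. PPT1 went the other way, from 0.24 to -0.09, a difference of -0.33.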

How the results depend on the processing

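No paired analysis was possible because each condition had 1 library, and no library could be left out for the same reason. The number of members past 2-fold changed with the count minimum. With a minimum of 10 counts it was 2 for NBT, 2 for trametinib, 4 for the combination and 2 for the combination against NBT. With a minimum of 1 count it was 2, 4 and 6 against the control, 9 for the combination against trametinib and 4 against NBT, the added genes being those with few counts. No share of all genes was computed at the minimums of 10 and 1. At a 1.5-fold limit the numbers were 4, 3, 10, 8 and 1 in the same order. The 8, for the combination against trametinib, were 5 higher and 3 lower, where 954 of all 11367 genes were higher and 1221 lower. Hydrolases beyond counting error with trametinib were 7 higher and 2 lower under both TMM and DESeq2 scaling, alternatives added after seeing the data. Pump genes higher beyond counting error with trametinib were 8 under TMM and 9 under DESeq2 scaling, also added after seeing the data. The number past 1 from the sum of the single-drug ratios, which was TFEB alone, was 0 under TMM, DESeq2 scaling, TPM and 5 added reads. A recomputed count was called kept if it was within a factor of 1.5 of the main value. A median was called kept if it moved by no more than the counting error of a typical gene. Of 149 values over groups of genes recomputed, 127 were kept in this sense, which does not mean that they were unchanged. Of 500 ratios of the 20 named genes recomputed, 485 stayed within their counting interval, 15 moved outside it and 0 reversed past 2-fold. No scaling moved the median of all genes by more than 0.07. Small ratios changed sign with the scaling for CTSD with trametinib, LAMP2 with NBT, LAMP1, ATP6V1B2 and ATP6V1E2 with the combination, LAMP1 between the combination and trametinib, and ATP6V0A1 and NPC1 between the combination and NBT. ATP6V1C2 and TFEB rested on few counts.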
